A study of Mus musculus with 6 samples.

Results

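The 36 genes described here are macrophage and general leukocyte genes whose RNA was read in cultures of mouse lung endothelial cells. They were taken as a list of symbols, chosen with earlier results of these data known. All 36 are among the 53735 genes of the deposited table. Shares of members set beside shares of all genes below are therefore descriptions and not independent support. The list was meant for genes whose mean over the 6 libraries is 10 normalized counts or more. That level was reached by 34 of them, and Ear2 and Cx3cr1 stayed below it. A normalized count is a gene's read count divided by a size factor of its library, which puts libraries of different depth on one scale. The cells were in primary culture without passage or treatment, picked with magnetic beads against the surface proteins CD31 and ICAM2 and grown to confluence on gelatin.

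The comparison was between 2 libraries labelled wild type for Zmpste24 and 4 labelled knockout. Zmpste24 encodes the protease that matures prelamin A, a protein of the nuclear lamina. The labels name no strain, age or deleted exon, and they say that the mice came from 2 cohorts without saying which library came from which. Nothing says that each library is a separate animal, so p-values here reflect how far single libraries spread, and part of that spread may be technical. Each library is called by its genotype and its title number.

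Macrophages are the resident phagocytes of tissue. In the lung, alveolar macrophages live in the air spaces and clear surfactant and particles, while interstitial macrophages lie in the tissue around vessels and airways. The transcription factor PU.1, the product of Spi1, and signalling through the receptor Csf1r are needed for most of the lineage. PU.1 binds purine-rich DNA around the letters GAGGAA, as other factors of the ETS family, some of them endothelial, also can.

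Libraries fell into 2 clusters that cut across genotype, and the results below are given with them in view. Clustered over 15080 genes that are neither members nor in any other list used here, wild type 1 and knockout 1 stood together, and wild type 2 with knockout 2, 3 and 4 formed the larger cluster. Libraries correlated at r = 0.978 to 0.990 within a cluster and at 0.912 to 0.938 between clusters, across genes, which are not independent replicates. Whether the clusters are the 2 cohorts is not given. Recovered reads ran from 32699024 in wild type 2 to 45613685 in knockout 3, with 40582588 and 40676474 in wild type 1 and knockout 1. Zmpste24 itself had 5503 and 4148 normalized counts in wild type libraries 1 and 2 and 5079, 3764, 3599 and 3720 in knockout 1 to 4, and since the deleted part is not named these values do not check the labels. The endothelial genes Cdh5 and Pecam1 were read in every library, with 62133 and 30000 normalized counts in wild type 1, the highest values, and 13135 and 7429 in knockout 4, the lowest. The collagen gene Col1a2, a gene of fibroblasts, was also high throughout, at 140619 to 184725 normalized counts.

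Start regions of 6 members are printed first, because the results below turn on genes that were high in the larger cluster and genes that were not. Of the 36 members, 27 had an entry among the RefSeq start regions of mouse GRCm38.p6. In the 250 bases before the start, GAGGAA on either strand occurred in 14 of these 27 (51.9%), against 6986 of 27025 genes (25.9%) in windows of the same length. The longer GAGGAAGT, which contains GAGGAA, occurred in 2 of the 27 (7.41%), C1qc and Vav1, against 2.79% of all genes. TTNNGCAA, a core of sites for C/EBP factors, occurred on either strand in 3 of the 27 (11.1%) against 10.8%. A match is a run of letters and not a site shown to be bound. The sequences run 5′ to 3′ on the strand of the gene, with each GAGGAA, or TTCCTC where it lies on the other strand, in capitals. Chil3 (chr3:106167565-106167814, minus strand) and Marco (chr1:120505025-120505274, minus strand) are the tested alveolar members. C1qc (chr4:136893066-136893164, minus strand, 99 bases that lie before the annotated gene) and Vav1 (chr17:57278850-57279099, plus strand) hold the longer match. Cd53 (chr3:106790150-106790399, minus strand) and Clec7a (chr6:129472780-129473029, minus strand) were lower in the larger cluster.
Chil3: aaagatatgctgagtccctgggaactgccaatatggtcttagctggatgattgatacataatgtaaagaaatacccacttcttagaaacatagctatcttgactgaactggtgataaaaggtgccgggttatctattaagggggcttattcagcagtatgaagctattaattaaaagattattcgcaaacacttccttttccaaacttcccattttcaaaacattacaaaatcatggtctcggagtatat
Marco: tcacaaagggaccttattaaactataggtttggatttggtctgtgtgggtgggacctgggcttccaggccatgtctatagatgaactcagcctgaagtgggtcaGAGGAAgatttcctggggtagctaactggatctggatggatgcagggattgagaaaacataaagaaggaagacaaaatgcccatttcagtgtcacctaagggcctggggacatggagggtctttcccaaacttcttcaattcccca
C1qc: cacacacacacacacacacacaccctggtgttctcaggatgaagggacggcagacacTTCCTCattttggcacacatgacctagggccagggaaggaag
Vav1: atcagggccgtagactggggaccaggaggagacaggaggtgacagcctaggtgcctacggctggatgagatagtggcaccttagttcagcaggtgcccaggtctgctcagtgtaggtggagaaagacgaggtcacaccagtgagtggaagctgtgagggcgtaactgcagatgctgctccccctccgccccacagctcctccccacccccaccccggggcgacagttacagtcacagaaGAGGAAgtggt
Cd53: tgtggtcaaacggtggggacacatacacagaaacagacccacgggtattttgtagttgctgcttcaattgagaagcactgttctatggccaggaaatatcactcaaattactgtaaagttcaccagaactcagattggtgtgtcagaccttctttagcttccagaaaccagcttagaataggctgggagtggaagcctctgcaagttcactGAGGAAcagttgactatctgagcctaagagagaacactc
Clec7a: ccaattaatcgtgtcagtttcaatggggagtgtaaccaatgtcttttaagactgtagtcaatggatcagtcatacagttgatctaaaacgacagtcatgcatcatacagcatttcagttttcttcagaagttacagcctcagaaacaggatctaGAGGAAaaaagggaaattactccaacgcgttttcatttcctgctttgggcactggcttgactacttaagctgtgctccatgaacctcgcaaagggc
The window of Chil3 held no match. The match began 146 bases before the RefSeq start in Marco, 193 in C1qc, 11 in Vav1, 39 in Cd53 and 96 in Clec7a. Cd53 and Clec7a had the letters in their window, as did Marco, C1qc and Vav1, which were high in the larger cluster. In C1qc and Vav1 this was given by their longer match. The 6 printed windows are not a sample of the members, and a link between the letters and the clusters was not tested.

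Summed over all 36 members, these genes had 191 and 158.4 RPM (reads of the gene scaled by the total reads of its library) in wild type 1 and knockout 1, and 1215, 1208, 1731 and 1090 in wild type 2 and knockout 2, 3 and 4. The sums of the larger cluster did not overlap with those of the other 2 libraries, and each genotype had libraries on both sides. In bulk RNA, fewer macrophages in a culture and less of these RNAs per macrophage cannot be told apart. Lyz2 alone gave 10.6% and 10.8% of the member reads in wild type 1 and knockout 1 and 40.5% to 44.7% in the others. Without Lyz2 the sums were 170.8 and 141.2 RPM against 602.7 to 1029.

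**Figure D1:**
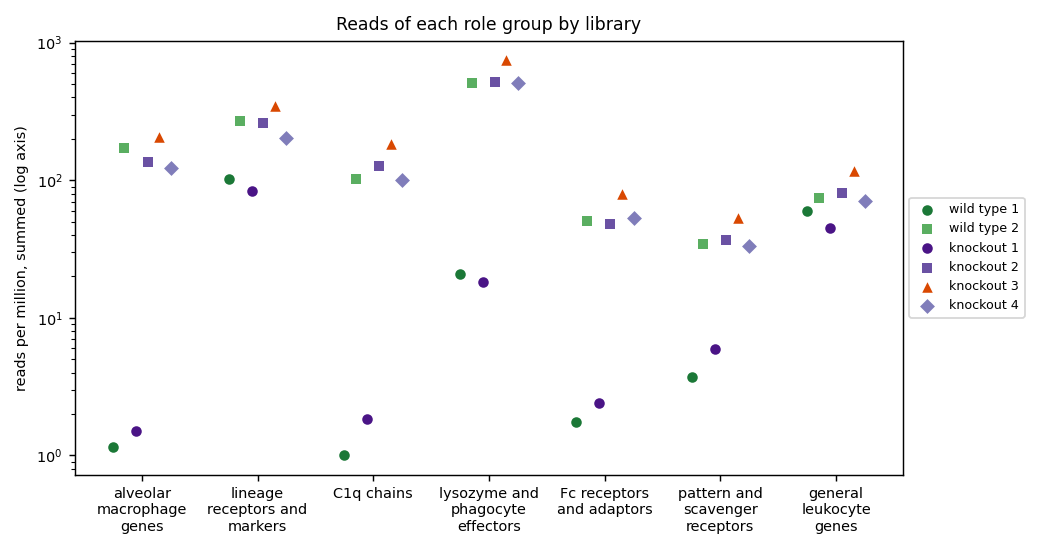
Reads of each role group scaled to library depth as RPM (log axis), one point per library, with circles for wild type 1 and knockout 1. These 2 libraries lie at or below 1.844 RPM for the alveolar and C1q groups, where the other 4 lie between 100.6 and 206.8, while the general leukocyte group, which holds Cd53, runs from 44.94 to 117.7.

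Of the 34 tested members, 30 had all 4 libraries of the larger cluster above wild type 1 and knockout 1, where 32.7% of all tested genes did so. In 2 members, Cd53 and Clec7a, all 4 were lower, where 30.7% of all genes were. The clusters overlapped in Cd14 and Lst1. The lowest of the 4 was at least 4-fold above the higher of the 2 in 23 of the 34 members, against 2% of all genes, and at least 10-fold above it in 22, against 0.847%. All 4 were at least 2-fold lower in 0 members, against 4.24% of all genes. Counts under 3 reads were set to 3 reads for these ratios. Members and all genes alike were tested only at a mean of 10 or more over all 6 libraries. A gene can reach that mean through the larger cluster alone. Spi1, at 0 in wild type 1 and 1.03 in knockout 1, and Fcgr2b, at 2.09 and 2.05, passed in this way. How far the filter shaped these and later shares of tested genes was not tested. No test was made between the clusters, which were defined from the data.

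**Figure D2:**
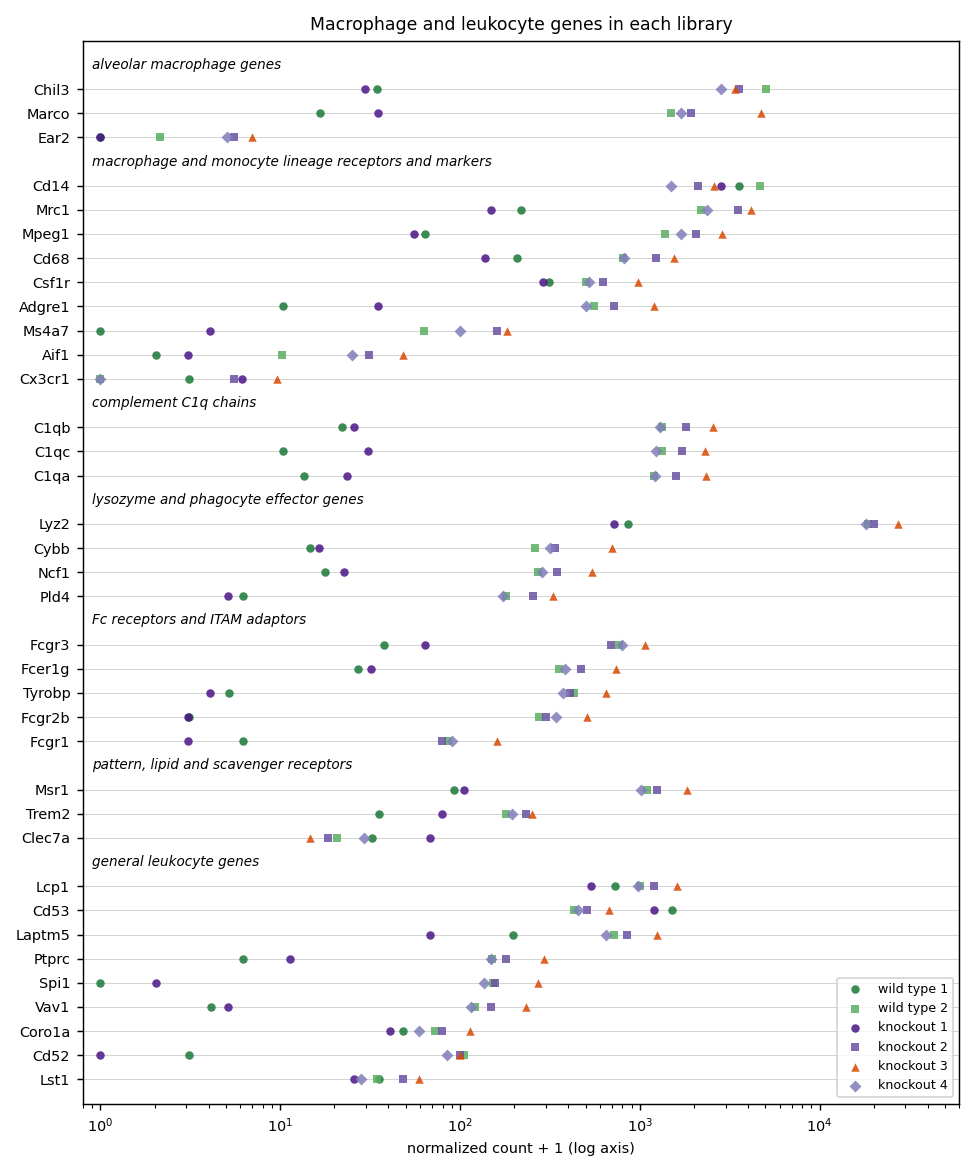
Normalized count plus 1 of each of the 36 members (log axis), one point per library, grouped by role. In most rows wild type 1 and knockout 1 lie to the left of the other 4 libraries; Cd14, Lst1, Cd53 and Clec7a depart from this, and Ear2 and Cx3cr1 stay below a count of 10 throughout.

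Among the alveolar macrophage genes, Chil3 and Marco were high in the larger cluster and Ear2 was nearly unread. Chil3 (chromosome 3, 106147554 to 106167564 in GRCm38, minus strand) encodes the secreted chitinase-like protein Ym1. It had 33.5 and 5020 normalized counts in wild type libraries 1 and 2, and 28.8, 3564, 3375 and 2835 in knockout 1 to 4. Wild type 2 was the highest library, and the lowest of the 4 high libraries was 84.6-fold above wild type 1. Marco (chromosome 1, 120474538 to 120505024, minus strand) encodes a scavenger receptor for bacteria and particles. Its normalized counts were 15.7 and 1487 in wild type and 33.9, 1924, 4705 and 1695 in knockout, so that knockout 3 stood above all others. Chil3 and Marco therefore ranked the larger cluster differently. Within a library the ratio of Chil3 to Marco reads, which needs no scaling between libraries, was 2.13 and 3.37 in wild type 1 and 2 and 0.848, 1.85, 0.717 and 1.67 in knockout 1 to 4. The wild type ratios were the highest, though those of wild type 1 and knockout 1 rest on 15 and 33 Marco reads. Ear2, an eosinophil-associated ribonuclease gene, had 0 and 1.15 normalized counts in the wild type libraries and 0, 4.56, 6.00 and 4.04 in knockout. Its transcript matches one of Ear1 at 96.4% identity, which makes even these reads uncertain.

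The receptors and markers of the macrophage and monocyte lineage were uneven. Mrc1, the mannose receptor, had 218 and 2188 normalized counts in wild type libraries 1 and 2 and 147, 3507, 4162 and 2357 in knockout 1 to 4. Mpeg1, which encodes the pore-forming protein perforin-2, had 62.8 and 1384 in wild type and 54.4, 2062, 2873 and 1688 in knockout. Cd68, a membrane protein of macrophage lysosomes, had 206 and 811 in wild type and 137, 1227, 1543 and 816 in knockout. For all 3 genes wild type 1 and knockout 1 were the lowest libraries, wild type 2 the lowest of the larger cluster and knockout 3 the highest. Adgre1, the gene of the F4/80 antigen, had 9.42 and 558 normalized counts in the wild type libraries and 33.9, 716, 1206 and 504 in knockout. Csf1r, the receptor of macrophage colony-stimulating factor, spanned far less, with 311 and 501 in wild type and 290, 622, 981 and 518 in knockout. The ratio of Csf1r to Adgre1 reads was 33.0 and 8.55 in wild type 1 and knockout 1 and 0.814 to 1.03 in the other 4 libraries. Csf1r shares 873 exonic bases with Hmgxb3 on the opposite strand, and the sources used here do not say whether counting used the strand, so part of its reads may belong to Hmgxb3.

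Ms4a7 and Aif1 were low genes with the same order of clusters. Ms4a7 (chromosome 19, 11321039 to 11336146), a membrane protein gene of tissue macrophages, had 0 and 62.2 normalized counts in wild type libraries 1 and 2 and 3.08, 161, 181 and 98.9 in knockout 1 to 4. Aif1 (chromosome 17, 35170991 to 35176068), which encodes the actin-binding protein IBA1, had 1.05 and 9.22 in wild type and 2.05, 30.1, 47.2 and 24.2 in knockout. In the larger cluster the wild type library was the lowest for both, and its Aif1 value rests on 8 reads. Cx3cr1, the fractalkine receptor, had 2.09 and 0 normalized counts in the wild type libraries and 5.14, 4.56, 8.57 and 0 in knockout, so that its highest library held 10 reads.

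Cd14 did not follow the lineage group. It encodes the lipopolysaccharide co-receptor, which cells other than macrophages can also carry. Its normalized counts were 3559 and 4672 in wild type 1 and 2, and 2820, 2112, 2592 and 1498 in knockout 1 to 4. Both wild type libraries lay above all 4 knockout libraries, and knockout 1 was the highest of the knockouts. The ratio of Cd14 to Mrc1 reads was 16.3 and 19.2 in wild type 1 and knockout 1, 2.14 in wild type 2 and 0.602 to 0.636 in knockout 2, 3 and 4.

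The 3 chains of C1q, the protein that starts the classical complement pathway, lie side by side on chromosome 4 between 136880129 and 136898803 and were read together. C1qa had 12.6 and 1202 normalized counts in wild type libraries 1 and 2 and 22.6, 1580, 2329 and 1218 in knockout 1 to 4. C1qb had 20.9 and 1325 in wild type and 24.7, 1805, 2543 and 1301 in knockout. C1qc had 9.42 and 1323 in wild type and 29.8, 1706, 2296 and 1223 in knockout. Knockout 3 was the highest and knockout 2 the next for each chain, and wild type 2 and knockout 4 differed little. The ratio of C1qa to C1qb reads was 0.876 to 0.936 in 5 libraries and 0.600 in wild type 1, where it rests on 12 and 20 reads.

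Lysozyme was the most abundant member of the larger cluster. Lyz2 (chromosome 10, 117277331 to 117282321, minus strand), the macrophage lysozyme gene, had 856 and 18509 normalized counts in wild type libraries 1 and 2 and 718, 20138, 27455 and 18131 in knockout 1 to 4. Unlike the C1q genes it was still well read in wild type 1 and knockout 1, with 818 and 699 reads. The ratio of Lyz2 to C1qa reads was 68.2 and 31.8 in these 2 libraries and 11.8 to 15.4 in the others. Lyz1 matches the Lyz2 transcript at 95.8% identity over 1264 bases and had at most 20.6 normalized counts, so reads lost to or taken from it are possible. Cybb, the catalytic subunit of the phagocyte NADPH oxidase, had 13.6 and 262 normalized counts in the wild type libraries and 15.4, 337, 700 and 317 in knockout. Ncf1, the p47phox subunit of the same oxidase, had 16.8 and 272 in wild type and 21.6, 348, 542 and 287 in knockout, and shares 408 exonic bases with Gtf2ird2 on the opposite strand. Pld4, an endolysosomal exonuclease gene, had 5.23 and 180 in wild type and 4.11, 253, 327 and 173 in knockout. The clusters did not overlap in any of the 4 effector genes, and knockout 3 was the highest library in each.

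Fc receptors bind antibody, and the adaptors Fcer1g and Tyrobp carry their signal and that of other receptors into the cell. Fcgr3, an activating receptor gene, had 36.6 and 770 normalized counts in wild type libraries 1 and 2 and 62.7, 691, 1074 and 797 in knockout 1 to 4. Fcgr2b, the inhibitory receptor gene, had 2.09 and 275 in wild type and 2.05, 300, 510 and 339 in knockout, and its transcript matches Fcgr3 at 96.3% identity over 512 bases. Fcgr1, the high-affinity receptor gene, had 5.23 and 85.3 in wild type and 2.05, 78.5, 159 and 88.8 in knockout. In all 3 receptors knockout 3 lay above the rest of the larger cluster. Fcer1g had 26.2 and 353 in wild type and 30.8, 470, 738 and 383 in knockout. Tyrobp, the gene of DAP12, had 4.19 and 427 in wild type and 3.08, 409, 647 and 372 in knockout. In wild type 1 and knockout 1 Fcer1g was still read 25 and 30 times and Tyrobp 4 and 3 times, while both were above 300 reads elsewhere.

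The pattern and scavenger receptors split. Msr1, the class A scavenger receptor gene, had 92.1 and 1099 normalized counts in the wild type libraries and 105, 1240, 1820 and 1019 in knockout. Trem2, a lipid-sensing receptor that signals through Tyrobp, had 34.5 and 180 in wild type and 78.1, 231, 250 and 195 in knockout. Its span between the clusters was small, with the lowest library of the larger cluster 2.302-fold above knockout 1. Clec7a (chromosome 6, 129461591 to 129472779, annotated in GENCODE as a polymorphic pseudogene), the gene of the fungal glucan receptor dectin-1, ran the other way. It had 31.4 and 19.6 normalized counts in the wild type libraries and 66.8, 17.3, 13.7 and 28.3 in knockout, highest in knockout 1 and lowest in knockout 3.

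The general leukocyte genes, summed, came to 59.48 and 44.94 RPM in wild type 1 and knockout 1 and 70.89 to 117.7 in the others. Without Cd53, a sum added after its values were seen, they came to 24.03 and 16.3 RPM in these 2 libraries and 58.73 to 100.6 in the others. Lcp1, the actin-bundling plastin, had 732 and 998 normalized counts in the wild type libraries and 534, 1204, 1617 and 971 in knockout, and 530 of its exonic bases are shared with antisense or noncoding genes. Laptm5, a lysosomal membrane protein gene of blood cells, had 197 and 722 in wild type and 66.8, 852, 1254 and 647 in knockout. Ptprc (chromosome 1, 138062861 to 138175708), the pan-leukocyte phosphatase CD45, had 5.23 and 150 in wild type and 10.3, 180, 291 and 147 in knockout. All 3 were lowest in wild type 1 and knockout 1 and highest in knockout 3. Cd53 (chromosome 3, 106759921 to 106790149), a tetraspanin gene of leukocytes, had 1506 and 429 in wild type and 1197, 508, 670 and 452 in knockout. It was highest in wild type 1 and knockout 1, the libraries where Ptprc was almost unread. The ratio of Cd53 to Ptprc reads was 288 and 116 in these libraries, on 5 and 10 Ptprc reads, and 2.3 to 3.07 in the others. Lst1, a leukocyte membrane gene, had 34.5 and 33.4 in wild type and 24.7, 47.4, 58.3 and 27.3 in knockout, with no separation of the clusters.

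The remaining leukocyte genes kept the order of the clusters. Spi1, which encodes PU.1, had 0 and 152 normalized counts in wild type libraries 1 and 2 and 1.03, 155, 270 and 135 in knockout 1 to 4. Vav1, a signalling adaptor and exchange factor gene, had 3.14 and 121 in wild type and 4.11, 148, 231 and 114 in knockout. Both were at or below 4 reads in wild type 1 and knockout 1. Cd52, a small surface glycoprotein gene, had 2.09 and 105 in wild type and 0, 99.5, 98.6 and 83.8 in knockout, and 172 of its exonic bases are shared with Crybg2. Coro1a, the leukocyte coronin gene, had 47.1 and 71.4 in wild type and 40.1, 78.5, 113 and 58.5 in knockout, so that its clusters were close.

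Compared per length, the order of the members differed between the clusters. In RPKM, which is RPM per kb of exon, Lyz2 was first in wild type 2 at 373, followed by Chil3 at 81.7, Cd14 at 71.6, C1qb at 32.3, C1qa at 30.7 and Marco at 20.5. In knockout 3 Lyz2 was first at 533 and Marco the next at 62.5, ahead of C1qb at 59.8, C1qa at 57.3 and Chil3 at 52.9. In wild type 1 Cd14 was first at 48.4, then Cd53 at 20.4, Lyz2 at 15.3 and Cd68 at 3.86, and knockout 1 had the same 4 genes in the same order at 39.0, 16.4, 13.1 and 2.601. Lyz2 was first in all 4 libraries of the larger cluster. Ptprc was low in every library by this measure, at 0.217 in wild type 2 and 0.406 in knockout 3. Lengths were exons joined over all annotated transcripts of a gene, 18313 bases for Ptprc, and its low place depends on that length.

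Within the larger cluster, knockout 3 was the highest of the 4 libraries in 30 of 34 tested members, against 16% of all tested genes. The exceptions were Chil3, Cd14 and Cd52, highest in wild type 2, and Clec7a, highest in knockout 4. The log2 difference from wild type 2 had a median over the 34 members of 0.30 in knockout 2, 0.87 in knockout 3 and -0.01 in knockout 4, where the medians over all genes were 0.01, 0.00 and 0.00. These 3 differences share wild type 2. A difference above 0.5 was seen in 28 of 34 members in knockout 3 (82.4%, against 9.63% of all genes), in 5 in knockout 2 (14.7%, against 10.7%) and in 3 in knockout 4 (8.82%, against 5.4%). In the other cluster, knockout 1 minus wild type 1 had a member median of 0.07, with 17 members above 0 and 17 below, and a median of -0.02 over all genes. The summed reads of lung epithelial genes were also highest in knockout 3, at 16.3 RPM against 7.46 to 13.1 in the rest of that cluster and 1.53 and 1.94 in wild type 1 and knockout 1. Other lists moved in knockout 3 against wild type 2 as well. The median log2 difference was 0.84 over 6 lung epithelial genes, 0.94 over 11 interstitial macrophage genes (9 of them above 0.5), 1.18 over 3 neutrophil genes (3 above 0.5), -1.001 over 7 mesothelial genes (6 below -0.5) and -0.33 over 14 endothelial genes. In the same order, the medians of these lists against wild type 2 were 0.74, 0.55, 1.13, -0.36 and -0.01 in knockout 2. In knockout 4 they were -0.02, 0.03, -0.09, 0.04 and -0.71. For knockout 3 the median was also 0.78 over 6 monocyte genes. Over 2 genes each it was 0.98 for dendritic cells, 0.75 for T cells and -0.90 for natural killer cells. The dendritic pair was Clec10a at 1.94 and Zbtb46 at 0.02, and the natural killer pair Prf1 at -1.25 and Eomes at -0.55. The T cell pair was Lck at 0.05 and Trac at 1.44, and Trac had only 0 and 1.71 normalized counts in wild type 2 and knockout 3. The part of these lists in the members' differences was not tested.

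**Figure D3:**
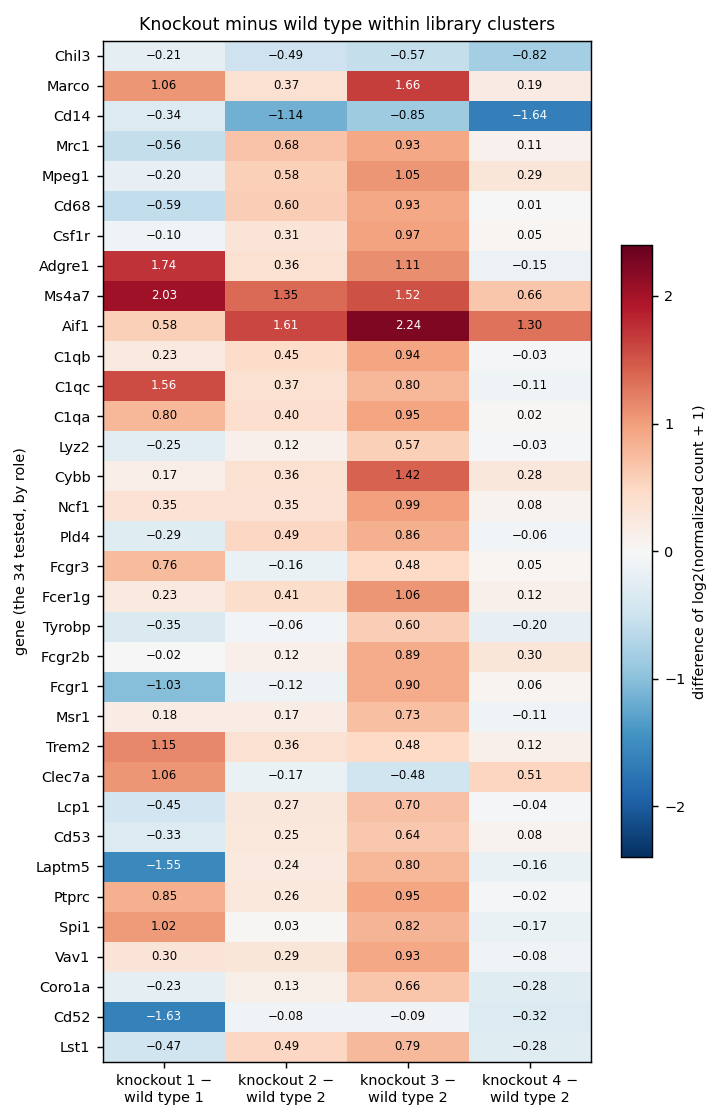
Log2 difference of each tested member from the wild type library of its own cluster, as knockout 1 minus wild type 1 and as knockout 2, 3 and 4 minus wild type 2. The column of knockout 3 is above 0 in 30 of 34 members, while that of knockout 4 is above 0 in 17; Chil3, Cd14 and Cd52 are below 0 in all columns.

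By role, the difference of knockout 3 from wild type 2 was as follows, and no test between roles was made. For the 4 lysozyme and effector genes the median log2 difference was 0.93, and Cybb was the farthest at 1.42. For the C1q chains it was 0.94, for the Fc receptors and adaptors 0.89 and for the general leukocyte genes 0.79. The lineage group had a median of 1.010, with Aif1 at 2.24, Ms4a7 at 1.52 and Adgre1 at 1.11, and Cd14 at -0.85. For the 3 pattern, lipid and scavenger receptors it was 0.48, from -0.48 for Clec7a to 0.73 for Msr1. In the alveolar group Marco was at 1.66 and Chil3 at -0.57. These are differences between single libraries, with no replicate check.

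The question of the study, whether the genotypes differed, was tested for each gene over all 15229 genes that averaged 10 or more normalized counts, as the log2 difference of normalized counts plus 1, knockout minus wild type. Limma called 0 of the 34 members at a Benjamini-Hochberg adjusted p under 0.05, where 0.00657% of all genes were called (1 gene), and 143 genes had an unadjusted p under 0.05. The median log2 difference was 1.38 over the members, with 32 above 0 and 2 below, and 0.00 over all genes. Of the wild type libraries 1 of 2 belongs to the smaller cluster, and of the knockout libraries 1 of 4. With the cluster as a term in the model the member median was 0.28, with 28 above 0 and 6 below, and 0 members were called. That fit also called 0.00657% of all genes. With genotype alone edgeR called 0.00657% of all genes and DESeq2 0.046%, and with the cluster as a term they called 0.0131% and 0.328%; none of the calls was a member. In the larger cluster alone the median was 0.36. The median was 0.88 with edgeR and with DESeq2. Leaving out wild type 1 turned the sign of 28 of 34 members and gave a median of -0.66, while it was 3.41 without wild type 2, 2.44 without knockout 1 and 0.86 without knockout 3.

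Cd14 was the 1 of 34 tested members (2.94%) whose genotypes did not overlap, a share that is not above that of all genes. Its mean was 4116 ± 787 (SD, n = 2) normalized counts in the wild type libraries and 2256 ± 585 (SD, n = 4) in knockout libraries. The log2 difference was -0.89 ± 0.28 (SE; 95% interval -1.59 to -0.20), which did not pass in limma (unadjusted p = 0.0193, adjusted p = 1.00). It was lower in 4 of 4 knockout libraries than in either wild type library, and 4.68% of all genes had no overlap in either direction, with 2.32% below and 2.36% above in the knockouts. With the cluster as a term the difference was -0.86 ± 0.29 (SE; limma adjusted p = 0.999). Against the wild type of its own cluster, Cd14 differed by -0.34, -1.14, -0.85 and -1.64 in knockout 1 to 4. The difference stayed negative when any 1 library was left out, from -1.09 to -0.70.

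Chil3 changed sign with the cluster term. With genotype alone its log2 difference was 1.27 ± 2.75 (SE; limma adjusted p = 1.00). With the cluster as a term it was -0.46 ± 0.15 (SE; 95% interval -0.84 to -0.08; unadjusted p = 0.0251, limma adjusted p = 0.999). DESeq2 with that term gave -0.55 and an adjusted p of 0.533, the lowest of any member in that fit. Against the wild type of its cluster Chil3 differed by -0.21, -0.49, -0.57 and -0.82 in knockout 1 to 4. Marco, the other tested alveolar gene, differed by 2.44 ± 2.52 with genotype alone and by 0.87 ± 0.45 (SE) with the cluster as a term, and by 1.06, 0.37, 1.66 and 0.19 within the clusters.

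Ms4a7, Aif1 and Trem2 were estimated higher in the knockout libraries both with genotype alone and with the cluster as a term, without passing. Ms4a7 differed by 2.89 ± 2.2 with genotype alone and by 1.52 ± 0.38 (SE; 95% interval 0.57 to 2.47; unadjusted p = 0.00865, limma adjusted p = 0.999) with the cluster as a term. Within the clusters its differences were 2.03, 1.35, 1.52 and 0.66 in knockout 1 to 4, the first on 0 and 3 reads. Aif1 differed by 2.01 ± 1.28 with genotype alone and by 1.26 ± 0.45 (SE; unadjusted p = 0.0354) with the term, and Trem2 by 1.11 ± 0.78 and 0.65 ± 0.25 (SE; unadjusted p = 0.0436), both at a limma adjusted p of 0.999. In all, 5 of 34 members had an unadjusted limma p under 0.05 with the term, where 535 of the 15229 genes did. Chil3 and Cd14 were lower, and Ms4a7, Aif1 and Trem2 higher. Within the clusters Trem2 differed by 1.15, 0.36, 0.48 and 0.12 in knockout 1 to 4, the first on 33 and 76 reads. In the larger cluster alone its difference was 0.32.

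**Figure D4:**
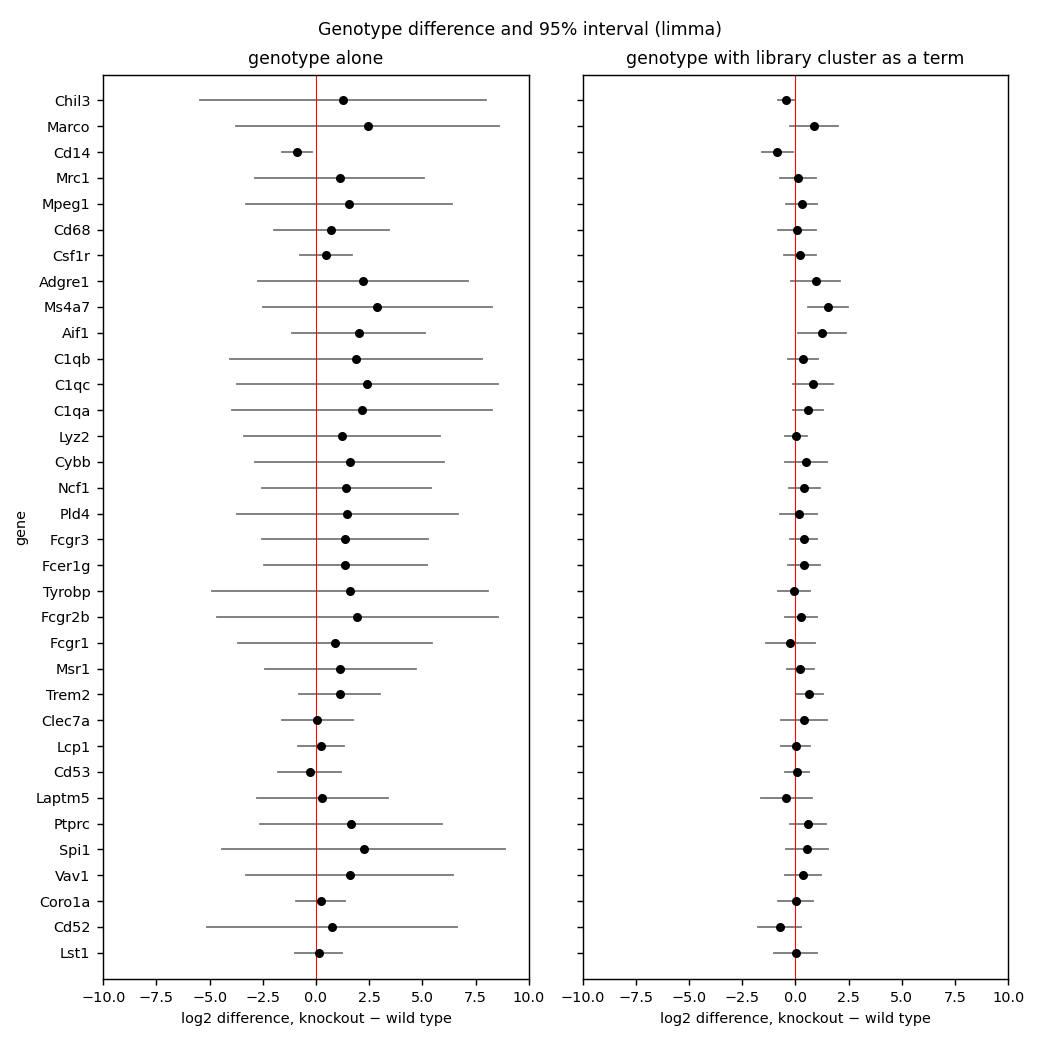
Log2 difference, knockout minus wild type, with its 95% interval from limma for each tested member, with genotype alone (left) and with the library cluster as a term (right). The intervals on the right are narrower for most members, Chil3 moves from 1.27 to -0.46, and Cd14 stays near -0.9 in both.

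Abundant and defining members did not pass with or without the cluster term. Lyz2 differed by 1.21 ± 1.88 with genotype alone and by 0.03 ± 0.20 (SE) with the cluster as a term. C1qa differed by 2.16 ± 2.5 and 0.59 ± 0.29, Adgre1 by 2.20 ± 2.01 and 0.96 ± 0.46, and Ptprc by 1.66 ± 1.75 and 0.58 ± 0.34 (SE). Cd53 differed by -0.29 ± 0.60 and 0.06 ± 0.22 (SE). None of these passed in limma (adjusted p = 1.00 with genotype alone and 0.999 with the term).

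Other genes of the lung macrophage types were read next to the members, from lists of known markers. Among 15 further alveolar genes, Siglecf, the receptor gene that defines alveolar macrophages, and Ear10 and Cidec had at most 3 reads in every library. Fabp4, a fatty acid carrier that endothelial cells also make, had 7474 and 3849 normalized counts in the wild type libraries and 6366, 4179, 4170 and 2619 in knockout. Ccl6, a chemokine gene of macrophages, had 73.3 and 5527 in wild type and 58.5, 5470, 8147 and 6171 in knockout, the order of the members. Of 13 interstitial macrophage genes, F13a1, the gene of a clotting factor subunit, had 11.5 and 4549 in wild type and 78.1, 4899, 6610 and 3961 in knockout. Cd163, the haemoglobin scavenger receptor gene, had 0 and 78.3 in wild type and 1.03, 197, 179 and 130 in knockout. Apoe, a lipid carrier gene, had 442 and 12183 in wild type and 471, 50493, 28624 and 11527 in knockout, while Gas6, a ligand of clearance receptors, was at 27819 to 51338 in all 6. Timd4 and Cd209f of that list had at most 3 reads. Of 10 tested alveolar genes, the larger cluster lay above wild type 1 and knockout 1 in 4 (F7, Lpl, Ccl6 and Car4), below them in 3 (Fabp4, Pparg and Abcg1) and overlapped with them in 3. Of 11 tested interstitial genes it lay above in 8, below in 1 (Ccl2) and overlapped in 2. Over all genes 32.7% lay above and 30.7% below. Of the tested genes in the alveolar (10) and interstitial (11) lists, 0 were called between genotypes.

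Blood leukocytes were checked by their own markers. Of 9 monocyte genes, Ly6c2, Ccr2 and Treml4 had at most 3 reads in every library, and of 9 dendritic cell genes Xcr1, Clec9a, Cd209a, Ccr7 and Siglech did. Clec10a, a lectin gene of dendritic cells and macrophages, had 0 and 136 normalized counts in the wild type libraries and 2.05, 404, 526 and 165 in knockout. Zbtb46, the other tested dendritic cell gene, was at 475 to 620 normalized counts in every library, and its clusters overlapped. Of 10 neutrophil genes S100a9, Retnlg, Ly6g and Ngp had at most 3 reads, while Mmp8, a collagenase gene, had 724 and 5352 in wild type and 2300, 12227, 12098 and 5040 in knockout. Among T cell genes, Cd3d, Cd3e, Cd3g, Cd8a and Cd8b1 had at most 3 reads, as had 7 of 8 B cell genes and Ncr1, Nkg7, Gzma and Klrd1 of the 7 natural killer genes. Trac, the T cell receptor alpha constant gene, was the exception in order, with 39.8 normalized counts in wild type 1 and 39.0 in knockout 1 and at most 1.71 in the others. The haemoglobin genes also had at most 3 reads in every library. Other genes of these lists were read at a range of levels: Ace ran from 5199 to 16615 normalized counts, Plac8 from 2563 to 6642, S100a8 from 35.7 to 202, Lck from 83.2 to 131, Prf1 from 18.9 to 47.1, Eomes from 6.00 to 43.1, Hdc from 98.4 to 809 and Itga2b from 74.7 to 112. Mcpt8, a protease gene of basophils, was read throughout, from 389 to 1550 normalized counts. Alas2, an enzyme gene of haem synthesis in red cell precursors, ran from 12.9 to 666, and all 4 libraries of the larger cluster lay below wild type 1 and knockout 1 in both genes.

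**Figure D5:**
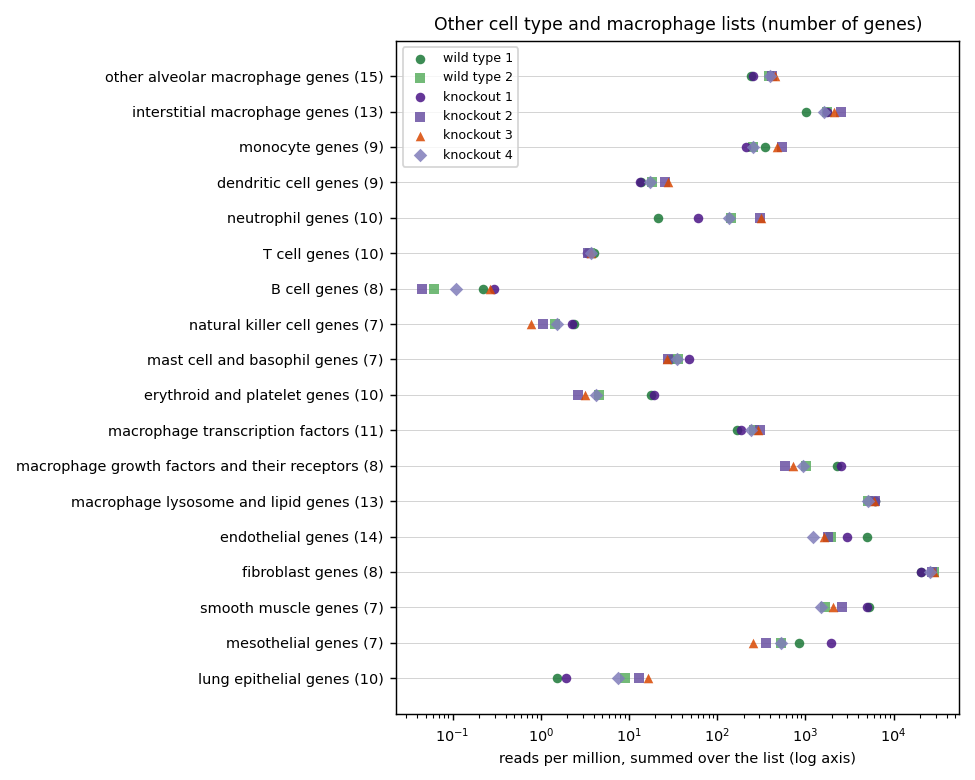
Summed RPM of the other lists (log axis), one point per library. The T cell and B cell lists reach at most 4.04 RPM in any library, and the endothelial list is highest in wild type 1 at 4962 and lowest in knockout 4 at 1226.

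Growth factors and regulators of the lineage ran in both directions. Csf1, the ligand of Csf1r, had 90045 and 33706 normalized counts in wild type libraries 1 and 2 and 99874, 19745, 24089 and 31628 in knockout 1 to 4. It was thus highest in wild type 1 and knockout 1, where the members were lowest. Tgfb1, which alveolar macrophages need, had 6087 and 3777 in wild type and 4464, 2759, 2964 and 2488 in knockout. Among 11 transcription factor genes, Cebpb, a factor of myeloid cells and of many others, had 1280 and 3542 in wild type and 1735, 4358, 4023 and 2978 in knockout. Bhlhe40 was at 2360 to 3871 in all 6 libraries, highest in wild type 1 and knockout 1. Of the 11 genes, the larger cluster lay above these 2 libraries in 8, below in 2 (Bhlhe40 and Bhlhe41) and overlapped in 1. Of 7 tested growth factor and receptor genes it lay above in 2, below in 4 and overlapped in 1. Over all genes 32.7% lay above and 30.7% below. Of the lysosomal genes, Ctsb, a cathepsin of most cells, was at 51907 to 74967 throughout, while Ctss, the cathepsin of antigen-presenting cells, had 18.8 and 1907 in wild type and 14.4, 2015, 2895 and 1653 in knockout. Lamp1 of that list was at 55447 and 51744 in wild type 1 and knockout 1 and at 34312 to 42171 in the others. Of the 13 lysosomal genes, the larger cluster lay above in 5, below in 5, among them Lamp1 and Ctsb, and overlapped in 3. In limma with genotype alone, 0 tested genes of these 3 lists were called. DESeq2 with the cluster as a term called Tgfb1, the tetraspanin gene Cd9 and the endothelial genes Flt1 and Vwf, all lower in the knockout libraries. That fit called 50 of all 15229 genes (0.328%), 39 of them lower. With the same term limma called 1 gene and edgeR 2. The summed endothelial genes were higher in wild type 1 and knockout 1, at 4962 and 2977 RPM, than in the other 4 libraries, at 1226 to 1967. Smooth muscle genes summed to 5245 and 5049 RPM in these 2 libraries against 1516 to 2578, with Acta2 at 27520 to 54028 normalized counts in the larger cluster and Tagln at 19833 to 35817. Mesothelial genes summed to 855.3 and 1931 RPM against 256.4 to 531.2, and fibroblast genes, among them Fn1 at 450020 to 684832 normalized counts, to 20270 and 20680 RPM against 25890 to 28560. Of the 8 fibroblast genes, the larger cluster lay above wild type 1 and knockout 1 in 6, below them in 1 (Col1a1) and overlapped with them in 1 (Col1a2). Of the epithelial genes, Sftpb, which encodes a surfactant protein, had 1.05 and 145 in wild type and 0, 187, 280 and 87.8 in knockout, while Ager, of type I alveolar cells, ran from 31.4 to 96.0. The part of these other cells in the member reads was not tested.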

How the data were processed

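Poly(A) RNA libraries of 6 cultures were sequenced as single-end reads of 100 nt, per the labels. The deposited normalized count signal is, by its values, read counts divided by a size factor per library. The submitters' processing notes list Trimmomatic 0.36, STAR 2.6.0c, Subread 1.6.1 with featureCounts, and the build GRCm38.p6. Older versions and HTSeq stand in the series' design text, so the tools behind the table, and any use of strand, are uncertain. Every value was a whole multiple of its library's step (100% within 1e-06), so whole reads were recovered, from 32699024 to 45613685 per library. At a mean of 10, counting error alone is 31.6%. Same-genotype libraries differed by more than sampling noise (chi-square per gene 28.4 to 438), and none was merged.

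The main test was limma 3.58.1 (R 4.3.3, mean trend) on log2(normalized count + 1) for the 15229 genes that averaged 10 or more, adjusted over all of them by Benjamini-Hochberg. Alternatives were edgeR 4.0.16 and DESeq2 1.42.0 on recovered reads, the library cluster as a term, the title number as a block, other pseudocounts, filters and scalings, and each library left out. The fits were also run on simulated data, but their recovery of changed genes is not given here. That 0 members were called therefore does not mean that no member differed. Gene models were GENCODE M21 on GRCm38, start regions RefSeq on GRCm38.p6, and transcript copies were found with BLAST 2.17.0. The members and all lists were chosen with earlier results of these data known. Named by rule were all members, with values of up to 4 members of highest mean per role and of those whose library order departed from their group, and the 2 tested genes of highest mean in each other list; other members and F13a1, Cd163, Siglecf and Ctss were added after their values were seen. Protein sequences were not used here.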

Additional observations from a re-analysis of the deposited data

Results flagged for a closer look

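In each group of 4 knockout libraries, 77 values were screened for a library whose gap to the nearest of the others exceeded Dixon's limit for 4 samples. By chance about 1 in 20 would be flagged among 4 libraries of 1 kind. The knockout libraries come from both clusters, so that figure is no reference here. Over all tested genes, the larger cluster lay wholly above the other 2 libraries in 32.7% and wholly below them in 30.7%. In 10 of the 11 that were, knockout 1, the only knockout of the smaller cluster, was the library that stood apart. Cd52 had 0 normalized counts in knockout 1 against 83.8 to 99.5 in the other 3. Lck was at 83.2 against 126 to 131, and Trac at 39.0 against 0 to 1.71. Prf1 was at 42.1 against 18.9 to 22.8, Alas2 at 666 against 12.9 to 70.7 and Itga2b at 106 against 74.7 to 76.7. Csf1 was at 99870 against 19750 to 31630. The mesothelial genes Msln and Upk1b were at 42000 against 4928 to 9087 and at 18590 against 1212 to 2327. Zmpste24 was at 5079 against 3599 to 3764. Siglecf was at 0 in knockout 4 against 0.857 to 1.03, which is 1 read in each of the others.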

How the results depend on the processing

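Limma, edgeR and DESeq2 called 0 members, with and without the cluster term. The count of all genes called was 1 with limma and with edgeR, 2 with a pseudocount of 10, 7 with DESeq2, 2 with edgeR and the cluster term, 50 with DESeq2 and that term, 0 in the larger cluster alone, and 0 to 2 in the fits that leave out 1 library each. Under a replicate block on the title number it was 0. Chil3 was then at -0.35 and Lyz2 at -0.0661 (log2), and the block changed no other call. The median over members was 0.18 (24 above 0, 10 below) in place of 1.38 (32 and 2), and 8 of 34 members changed sign. Knockout 3 and 4 share a number with no wild type library and add nothing to that fit. The labels do not say that a number marks a pair. Deviations from the genotype means correlated at 0.841 and 0.562 in the 2 pairs of equal number. Each pair lies within 1 library cluster, so these correlations cannot show whether a number marks a pair. The log2 difference of Chil3 turned negative with edgeR (-0.0436), DESeq2 (-0.0451), the cluster term in limma (-0.46), edgeR (-0.55) and DESeq2 (-0.55), and in the larger cluster alone (-0.63). Cd53 turned positive with that term in limma (0.0602), edgeR (0.0661) and DESeq2 (0.0606) and in the larger cluster (0.32). With each library left out in turn, Chil3 ran from -2.32 to 4.86, Marco from -0.80 to 5.68, Adgre1 from -0.67 to 5.08, Ms4a7 from -0.10 to 5.88, C1qa from -1.08 to 5.39, Lyz2 from -1.01 to 3.43, Trem2 from -0.0605 to 2.29, Ptprc from -0.64 to 3.96 and Cd53 from -1.20 to 0.61; the reversed sign came without wild type 1 for each. The causes were not tested. Cd14 and Aif1 kept their sign in all of these. Counting only the general leukocyte genes, the member sum was 73.8 RPM in wild type 2 and 81.0, 117.7 and 70.9 in knockout 2, 3 and 4, and without Lyz2 it was 1029 in knockout 3. With 2 wild type libraries, 1 in each cluster, genotype differences within a cluster rest on a single wild type library.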
